A study of Homo sapiens with 6 samples.

Results

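The loci of 5 transcription factor genes of heart development were examined in ATAC-seq peak lists: NKX2-5, ISL1, MEF2C, HAND1 and HAND2. Each locus was a fixed window on the genome build hg19, and a peak belonged to a window when its midpoint lay inside. The windows were chr5:172580000-172740000 for NKX2-5 (160 kb), chr5:50600000-50800000 for ISL1 (200 kb), chr5:87950000-88300000 for MEF2C (350 kb), chr5:153800000-153920000 for HAND1 (120 kb) and chr4:174380000-174520000 for HAND2 (140 kb). Peaks from any of the 6 libraries were joined into 1 site where they shared at least 1 bp, which gave 135 sites in the 5 windows of 157560 sites over the genome. The 135 sites comprised 41 in the NKX2-5 window, 20 in the ISL1 window, 22 in the MEF2C window, 24 in the HAND1 window and 28 in the HAND2 window.

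ATAC-seq maps open chromatin by letting the Tn5 transposase cut and tag accessible DNA. The cells were ventricular-like cardiomyocytes made from H9, a human embryonic stem cell line, with a commercial ventricular differentiation kit and taken at day 15. The groups were 3 libraries of cells in which ZNF436 (a zinc finger protein of the KRAB family) had been knocked down and 3 control libraries, and the labels describe the replicates as separate differentiations of that line. The sources used here give neither the means of the knockdown nor the treatment of control cells. The knockdown lists held 115864, 102454 and 87871 peaks (replicates 1, 2 and 3), against 50719, 53662 and 68342 in the control lists, a ratio of means of 1.773. No read counts come with the lists and library depth is unknown, so the longer lists of the knockdown group cannot be told apart from the group. The ZNF436 locus and cardiomyocyte marker genes were not analysed here, so neither the knockdown nor the cell type was checked in these lists.

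The 5 genes encode DNA-binding proteins that act in overlapping steps of heart formation. ISL1, a LIM-homeodomain protein, marks multipotent cardiac progenitors, above all those of the second heart field, and is known to decline in most of their progeny as they become working cardiomyocytes. NKX2-5 is the homeodomain protein of early cardiac progenitors and cardiomyocytes, and MEF2C is the MADS-box protein that activates muscle genes. HAND1 and HAND2 are related basic helix-loop-helix proteins, which in mouse are best known from the left and the right ventricle. Such genes are typically surrounded by several enhancers. In RefSeq annotation on GRCh38.p14, NKX2-5 lies between BNIP1 and STC2, ISL1 between PARP8 and ITGA1, MEF2C between TMEM161B and CETN3, HAND1 between SAP30L and LARP1, and HAND2 between SCRG1 and FBXO8. The antisense genes MEF2C-AS1 and MEF2C-AS2 share bases with MEF2C there, and HAND2-AS1 with HAND2. Sites are named here after their window, and in none of the windows was a site assigned to a gene, since gene positions on hg19 were not used.

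The sequences just upstream of 3 of the genes are shown, with short motifs marked. They are the 250 bases before the annotated start, from RefSeq on GRCh38.p14, and they were not placed on the hg19 lists. NKX2-5 had no entry among the promoters used, and the 7 MEF2C starts are not printed. Capitals mark CANNTG, the E-box bound by helix-loop-helix proteins such as the HAND factors, and GATAA, the core bound by GATA factors, each searched on both strands (TTATC is GATAA on the other strand).
HAND2, minus strand of chr4:173530230-173530479: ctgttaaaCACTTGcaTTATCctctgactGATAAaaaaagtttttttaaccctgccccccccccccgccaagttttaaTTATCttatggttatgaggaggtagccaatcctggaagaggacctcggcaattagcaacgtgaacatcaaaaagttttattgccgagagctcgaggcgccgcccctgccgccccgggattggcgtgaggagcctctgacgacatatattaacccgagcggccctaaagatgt
ISL1, plus strand of chr5:51383198-51383447: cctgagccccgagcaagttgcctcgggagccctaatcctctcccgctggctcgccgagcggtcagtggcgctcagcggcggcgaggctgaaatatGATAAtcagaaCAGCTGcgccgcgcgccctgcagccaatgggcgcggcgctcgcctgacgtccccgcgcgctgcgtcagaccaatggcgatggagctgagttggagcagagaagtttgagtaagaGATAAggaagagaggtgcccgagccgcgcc
HAND1, minus strand of chr5:154478228-154478477: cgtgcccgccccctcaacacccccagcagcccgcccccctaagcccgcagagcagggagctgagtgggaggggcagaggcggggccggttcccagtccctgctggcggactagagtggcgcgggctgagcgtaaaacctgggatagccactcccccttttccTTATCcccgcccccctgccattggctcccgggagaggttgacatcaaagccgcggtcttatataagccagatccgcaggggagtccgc

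The HAND2 stretch held 1 E-box and 3 GATAA cores, the ISL1 stretch 1 E-box and 2 cores, and the HAND1 stretch 0 E-boxes and 1 core. Over the same 250 bases of 35116 promoters, 61.8% held an E-box and 20.4% a GATAA core. AAGTG, the core of the NKX2-5 motif, was found in 37.6% of promoters and once in the HAND2 stretch, where it lies inside the E-box. Of the 7 annotated MEF2C starts, 3 held an E-box, 3 a GATAA core and 6 AAGTG. These matches describe letters and no binding.

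All 5 windows held more called peaks in knockdown cells than in control cells. Relative to control, the ISL1 window differed most in number and the HAND1 window least. In the ISL1 window, the knockdown libraries held 19, 14 and 15 peaks and the control libraries 6, 6 and 5. The NKX2-5 window held 37, 29 and 30 peaks in knockdown, against 14, 10 and 24 in control. Control replicate 3 stood nearest to the knockdown libraries there, and the ratio was 2.67 without it, against 2.0 with all libraries. The MEF2C window held 22, 18 and 16 peaks in knockdown and 8, 10 and 10 in control. For the HAND1 window the counts were 22, 22 and 18 in knockdown and 13, 14 and 16 in control. The HAND2 window held 26, 19 and 24 peaks in knockdown and 11, 13 and 12 in control. In each window the lowest knockdown library lay above the highest control library.

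As means, the ISL1 window held 16 ± 2.65 peaks in knockdown and 5.67 ± 0.577 in control, a ratio of 2.82. The ratio was 2.0 for NKX2-5 (32 ± 4.36 and 16 ± 7.21) and for MEF2C (18.7 ± 3.06 and 9.33 ± 1.15), 1.92 for HAND2 (23 ± 3.61 and 12 ± 1) and 1.44 for HAND1 (20.7 ± 2.31 and 14.3 ± 1.53; SD, n = 3 each, knockdown before control). Together the windows held 110 ± 13.6 peaks in knockdown and 57.3 ± 8.39 in control (SD, n = 3 each; p = 0.1, two-sided exact permutation test, here and for each window). No smaller p than 0.1 is possible in a comparison of 3 with 3. Groups that did not overlap were common in these lists: of 10131 tiles of 0.2 Mb with a mean of at least 2 peaks, 58.1% had all knockdown libraries above all control libraries (87% of bins of 1 Mb), and the median ratio over tiles was 1.89 (quartiles 1.5 and 2.5). The ratios of NKX2-5, MEF2C and HAND2 lay between those quartiles, that of ISL1 above them and that of HAND1 below them. The windows ran from 120 to 350 kb, and the tiles were not chosen to match them in length or peak number, here and below.

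**Figure D1:**
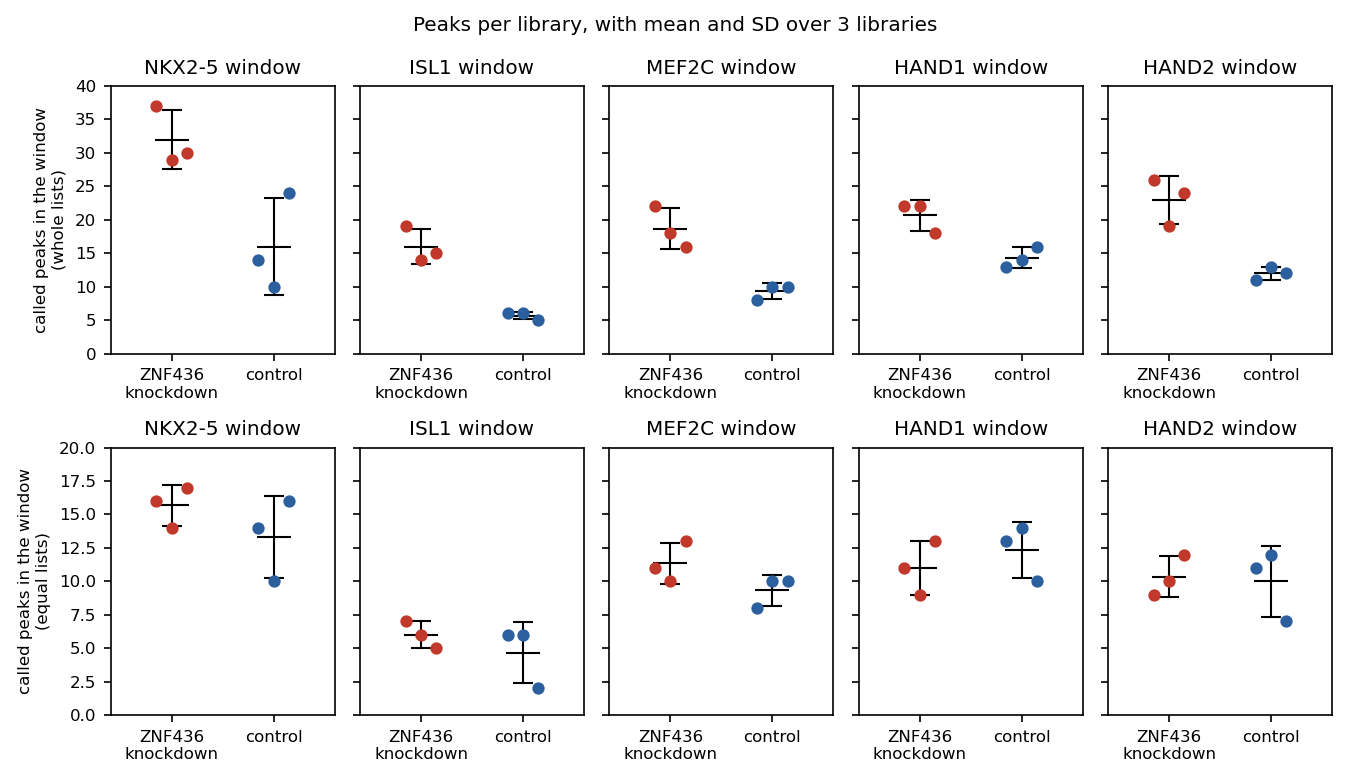
Called peaks per window in each library (points), with mean and SD over 3 libraries (bars), for ZNF436 knockdown at left and control at right of each panel. The upper row uses the whole lists, where the groups are apart in every window, and the lower row the 50719 strongest peaks of each list, where they overlap in every window.

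At equal list length the groups overlapped in every window. When each list was reduced to its 50719 strongest peaks, the length of the shortest, the ISL1 window held 7, 6 and 5 peaks in knockdown and 6, 6 and 2 in control. The NKX2-5 window then held 16, 14 and 17 in knockdown and 14, 10 and 16 in control, and the MEF2C window 11, 10 and 13 against 8, 10 and 10. In each of these windows some control library reached the lowest knockdown library. The HAND2 window held 9, 10 and 12 peaks in knockdown and 11, 12 and 7 in control. In the HAND1 window the direction turned, with 11, 9 and 13 peaks in knockdown and 13, 14 and 10 in control, a ratio of 0.892. Over all 5 windows the means were 54.3 ± 5.51 in knockdown and 49.7 ± 4.04 in control (SD, n = 3 each; p = 0.4, two-sided exact permutation test), and no window had groups apart, which 9.34% of tiles had in the upward and 7.46% in the downward direction.

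As a share of each library's own peaks, the ISL1 window was higher and the HAND1 window lower in knockdown in the whole lists. The ISL1 window held 0.0164%, 0.0137% and 0.0171% of the peaks in knockdown, against 0.0118%, 0.0112% and 0.00732% in control, a ratio of 1.55 (n = 3 each, p = 0.1 by a two-sided exact permutation test). Its knockdown values all lay above its control values, as they did in 19.8% of tiles. The HAND1 window held 0.0190%, 0.0215% and 0.0205% in knockdown and 0.0256%, 0.0261% and 0.0234% in control, a ratio of 0.811 (n = 3 each, p = 0.1 by a two-sided exact permutation test). All 3 knockdown values were below the control values, as in 13.8% of tiles. At equal list length the groups overlapped for both, with ratios of 1.29 for ISL1 (p = 0.7) and 0.892 for HAND1 (p = 0.6, two-sided exact permutation tests). In the whole lists the shares overlapped for NKX2-5 (ratio 1.16), MEF2C (1.12) and HAND2 (1.08). As a share of the peaks of the same chromosome, these ratios were 1.05, 1.004 and 1.02. On that measure the ratio was 1.40 for ISL1 and 0.731 for HAND1 (p = 0.1 each, two-sided exact permutation tests). Over all 5 windows it was 1.004, against 1.09 as a share of all peaks of the library. Together the windows held 0.109 ± 0.00883% of the peaks in knockdown and 0.0998 ± 0.00241% in control (SD, n = 3 each; p = 0.2, two-sided exact permutation test).

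The windows were denser in peaks than the 1 Mb on both sides of them in both groups. In knockdown the HAND2 window held 164 peaks per Mb and its flanks 27.2, and in control 85.7 and 9.83. The HAND1 window held 172 per Mb and its flanks 44 in knockdown, against 119 and 17.7 in control. The ISL1 window held 80 and its flanks 16.2 in knockdown, against 28.3 and 6.33 in control. For NKX2-5 these values were 200 and 71.3 in knockdown and 100 and 38.7 in control, and for MEF2C 53.3 and 11.3 in knockdown and 26.7 and 6.5 in control. The HAND1 flanks, which held 101, 85 and 78 peaks in knockdown and 24, 36 and 46 in control, differed more, with a ratio of 2.49 against 1.44 in the window itself.

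Each window was set against its flanks within a library as log2((window peaks + 0.5) / (flank peaks + 0.5)), and the group means were subtracted. The HAND1 window was lower relative to its flanks in knockdown, at -2.06 ± 0.125 against -1.23 ± 0.330 in control, a log2 difference of -0.83 (SD, n = 3 each; p = 0.1, two-sided exact permutation test). Its 3 knockdown values lay below its control values, as they did in 17.5% of tiles, while 11% of tiles had them above. At equal list length the HAND1 difference was -0.50 and the groups overlapped (p = 0.3, two-sided exact permutation test). The HAND2 difference was -0.55, with overlapping groups, and with the stronger 50% of each list it was 0.44, with groups apart (p = 0.1, two-sided exact permutation test). For NKX2-5, ISL1 and MEF2C the differences were 0.17, 0.11 and 0.21, and the groups overlapped. The ISL1 difference was 0.66 with flanks of 3 Mb, where its groups were apart (p = 0.1, two-sided exact permutation test), and 0.0024 at equal list length. Over tiles the quartiles of this difference were -0.38 and 0.29.

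In a test over the whole genome, the megabases that hold ISL1 and HAND2 had a larger share of the peaks in knockdown, and the others did not pass. Peaks were counted in 2856 bins of 1 Mb, scaled to the library total and compared by limma with Benjamini-Hochberg adjustment, which put 20% of bins higher and 10.2% lower in knockdown. The ISL1 bin, chr5:50000001-51000000, held 39, 35 and 28 peaks in knockdown and 11, 10 and 11 in control. Its log2 change was 0.79 with an SE of 0.148 (limma adjusted p = 0.00279), or 0.63 relative to the median bin. It passed under the 12 alternatives that kept bins of 1 Mb, with limma adjusted p from 1.01e-08 to 0.0267. The lowest came without scaling, where counts and not shares were compared and 89.8% of all bins were higher. Values of single bins of 0.5 Mb were not collected. The HAND2 bin, chr4:174000001-175000000, held 68, 52 and 49 peaks in knockdown and 22, 23 and 29 in control. Its log2 change was 0.34 with an SE of 0.101 (limma adjusted p = 0.0213), or 0.18 relative to the median bin. It did not pass when bins were scaled to the median ratio (adjusted p = 0.143) or without knockdown replicate 1 (0.122) or 3 (0.0726), over a range of 1.04e-06 to 0.143.

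The HAND1 bin did not pass (log2 change 0.29, limma adjusted p = 0.0558), nor did the NKX2-5 bin (0.074, adjusted p = 0.612). The MEF2C window spans a bin boundary, and neither bin passed, with log2 changes of -0.18 (adjusted p = 0.547) and 0.040 (adjusted p = 0.873). The HAND1 bin passed without control replicate 2 (adjusted p = 0.0436) or 3 (0.0466), within a range of 1.57e-06 to 0.341 over its alternatives. The count of higher and lower bins depended on the scaling: higher bins were 66.2% of all calls as scaled here, 99.2% without scaling and 40.6% with the median ratio.

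Sites with calls in knockdown libraries and none in control were common in the windows, as they were over the genome. Of the 135 sites, 30 were called in all 6 libraries (22.2%; 18.2% of sites over the genome). These 30 were 8 in the NKX2-5, 4 in the ISL1, 5 in the MEF2C, 8 in the HAND1 and 5 in the HAND2 window. A further 17 sites (12.6%) had a peak in each of the 3 knockdown libraries and none in control, where the genome had 7.72%. They were 4 each in the ISL1 and HAND2 windows and 3 each in the NKX2-5, MEF2C and HAND1 windows. The reverse, all 3 control libraries and no knockdown library, occurred at 0 sites (0.131% over the genome).

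All 30 sites that the 3 control libraries called were also called by the 3 knockdown libraries, as were 95.4% of such sites over the genome. Sites with a call in any knockdown library and in no control library numbered 66 (48.9%, against 47.7% over the genome), and sites with a call in any control library but in no knockdown library numbered 3 (2.22%, against 10.7%). These 3, named after their values were seen, were each called by 1 control library: MEF2C site 9 at chr5:88095887-88096276, NKX2-5 site 37 at chr5:172725205-172725393 and NKX2-5 site 38 at chr5:172728877-172729011. Another 36 sites (26.7%) were called by a single knockdown library and no other, against 28.5% over the genome. Control replicate 3 alone among the control libraries called 7 of the 73 sites found in all 3 knockdown libraries (9.59%, against 13.2% over the genome).

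**Figure D2:**
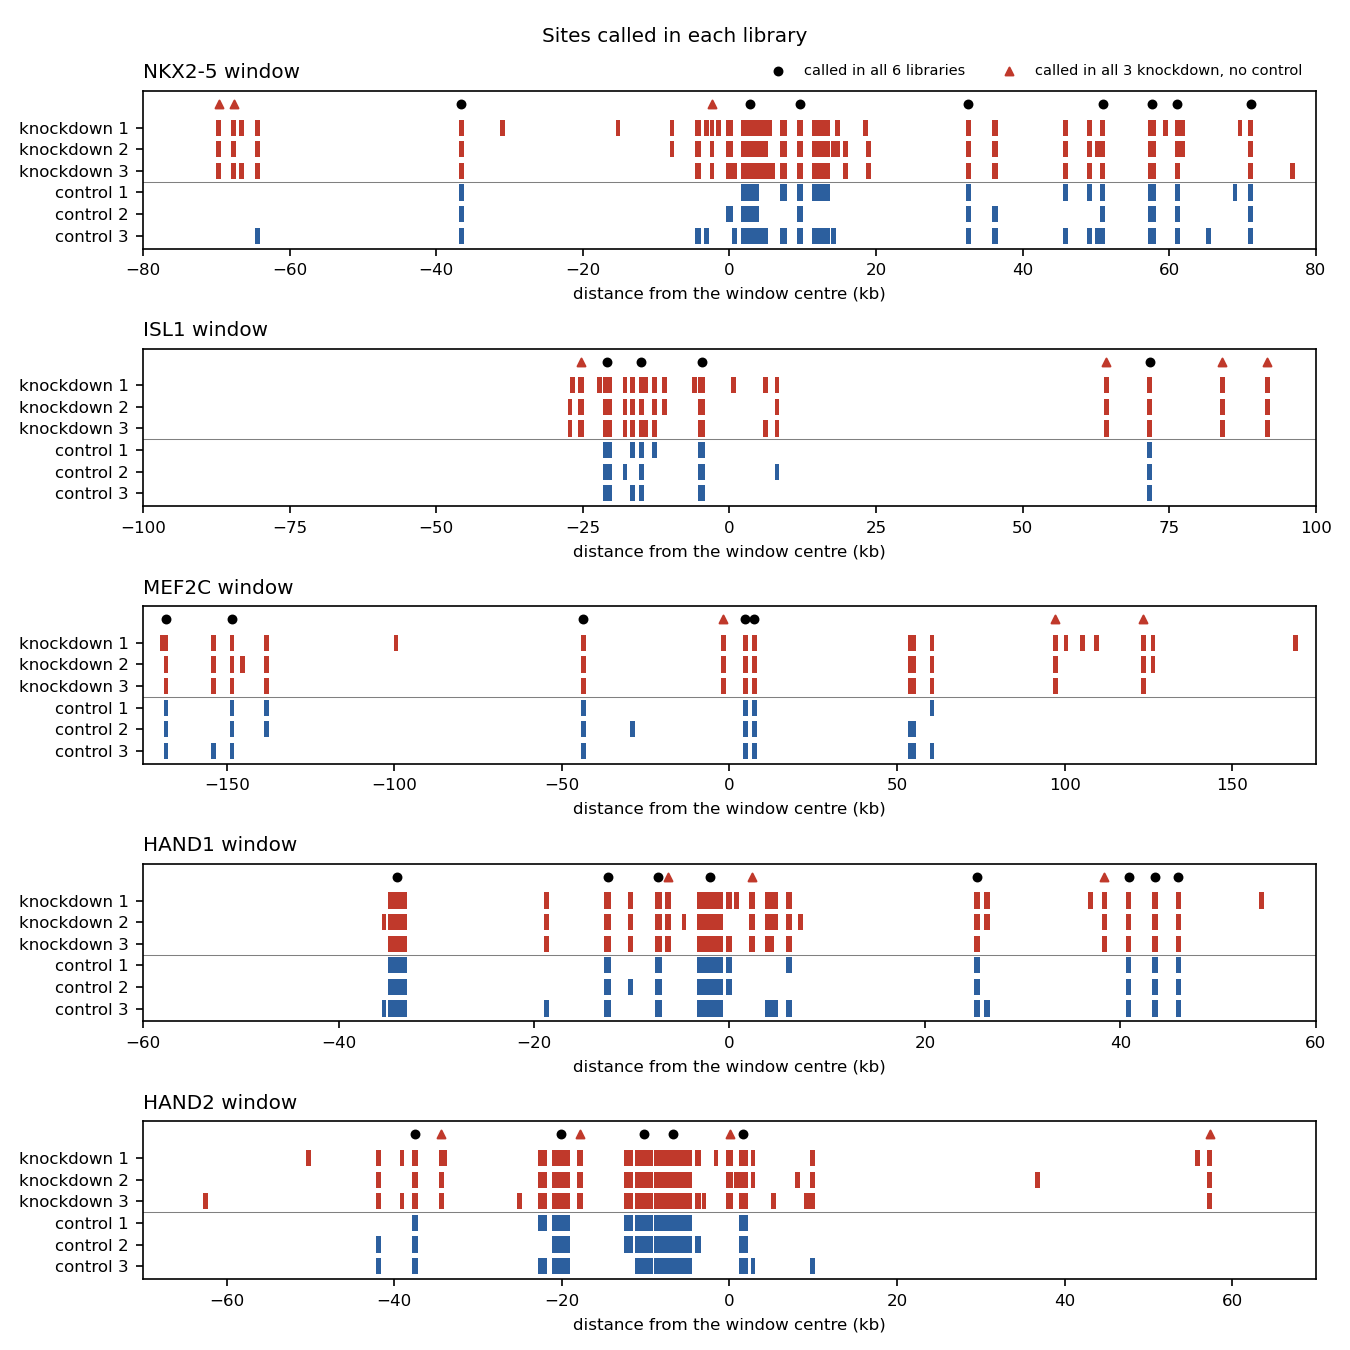
Sites of the 5 windows by distance from the window centre in kb, with 1 row per library, knockdown above control. A bar spans the merged site where that library called it (narrow sites are widened to be seen), dots mark the 30 sites called in all 6 libraries and triangles the 17 called by the 3 knockdown libraries alone.

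**Figure D3:**
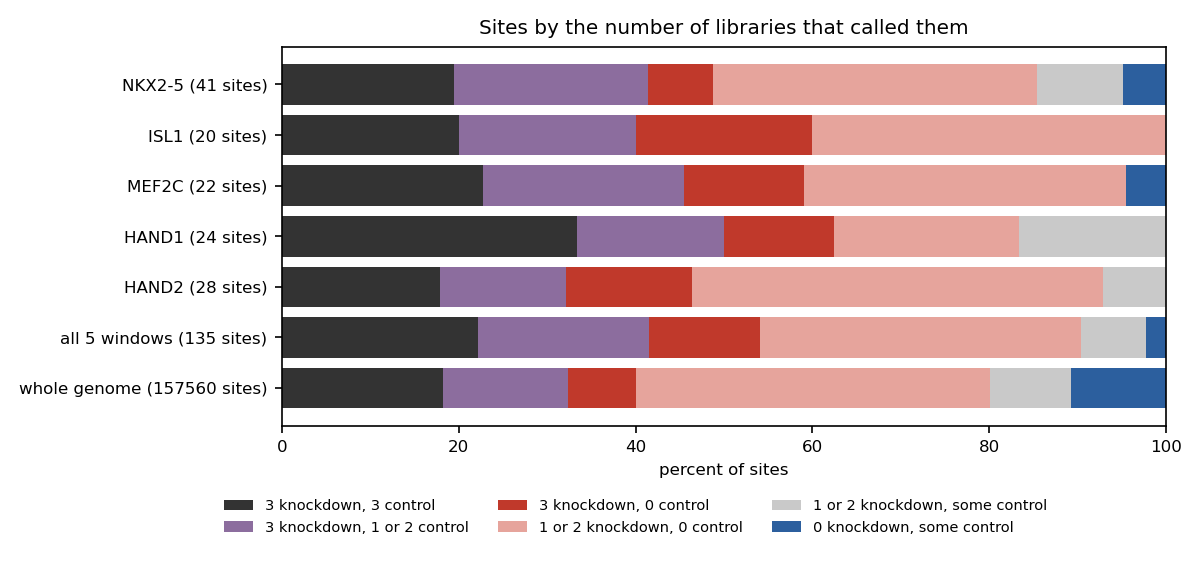
Share of sites, in percent, by the number of knockdown and control libraries that called them, for each window, all 5 windows and the genome. Sites with control calls alone take 2.22% of the windows' sites and 10.7% of the genome's.

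The sites called in knockdown alone were mostly of middling or low strength in their own lists. Strength is given as the percentile of the authors' peak score within a list, on which 100 is the strongest peak. The highest among the 17 was MEF2C site 16 at chr5:88221922-88222516, with percentiles of 72.3, 60.8 and 69.7 in the knockdown lists. HAND2 site 6 at chr4:174415445-174415794 had 48.4, 63.1 and 54.6. ISL1 site 3 at chr5:50674204-50675227 was the widest, with 424, 1024 and 821 bp covered in the knockdown libraries and percentiles of 48.4, 45.7 and 42.3. HAND2 site 28 (chr4:174507111-174507505) had percentiles of 55.2, 55.6 and 37.1, and MEF2C site 20 (chr5:88248364-88248580) 48.4, 31.9 and 42.3. In the remaining named sites the lowest of the 3 percentiles was 24.7 for ISL1 site 19 (chr5:50783921-50784151) and HAND1 site 7 (chr5:153853386-153854043), 14.5 for HAND1 site 12 (chr5:153862035-153862592) and NKX2-5 site 2 (chr5:172592231-172592491), and 10.1 for NKX2-5 site 11 (chr5:172657386-172657873).

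These 17 sites had a median width of 471 bp and lay a median of 5926 bp from the nearest site called in all 6 libraries, against 353 bp and 25279 bp for such sites over the genome. All 135 window sites had medians of 450 bp and 4556 bp, against 294 bp and 18742 bp for all sites of the genome, so the windows as a whole differed in the same way. HAND1 site 7 was 264 bp from such a site, and MEF2C site 20 was 115624 bp away. With lists of equal length, 2 of 73 sites were called in knockdown alone (3.03% over the genome), 0 in control alone (1.31%) and 24 in all libraries (29.3%). These were MEF2C site 16 and, outside the rule for named sites, HAND1 site 13 at chr5:153863610-153864513, which control replicate 3 had called in the whole lists with a percentile of 14.9.

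Covered bases differed in the same direction as peak numbers, with a larger ratio in each window but ISL1. Peaks covered 54005 ± 3972 bp of the 5 windows in knockdown and 21441 ± 5311 bp in control, a ratio of 2.52 (SD, n = 3 each; p = 0.1, two-sided exact permutation test). The HAND2 window had the largest of the 5 ratios, with 13674, 12877 and 14294 bp in knockdown and 4452, 3684 and 5667 bp in control, a ratio of 2.96. The ratio was 2.68 for ISL1, 2.47 for NKX2-5 (3.65 without control replicate 3), 2.34 for MEF2C and 2.20 for HAND1. In all 5 windows the groups were apart, as in 88% of tiles, whose median ratio was 2.06 (quartiles 1.65 and 2.82). At equal list length the ratio was 1.87 over the 5 windows and 2.27 for HAND2, and it ran from 1.75 for HAND1 to 1.79 for ISL1 in the others. The groups then overlapped in the NKX2-5 window (p = 0.2, two-sided exact permutation test).

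Sites called in all 6 libraries made up 35.0% of the difference in covered bases, with 27368 ± 729 bp in knockdown and 15964 ± 2125 bp in control. Sites called in knockdown alone gave 17.2%, and sites with mixed calls 47.8%. Over the genome these parts were 30.9%, 16.7% and 52.4%. The part of the sites shared by all libraries ran from 24.3% in the NKX2-5 window to 47.9% in the HAND2 window.

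Among the 30 sites that every library called, 11 were wider in knockdown, and the HAND2 window had the highest share of such sites. Width is the number of bases of the site that the peaks of a library cover, compared on the log2 scale by limma over 28749 such sites of the genome, of which 12.5% were wider and 0.16% narrower in knockdown after Benjamini-Hochberg adjustment. The 11 wider sites of the windows were 4 of 5 in the HAND2, 4 of 8 in the HAND1, 2 of 5 in the MEF2C, 1 of 4 in the ISL1 and 0 of 8 in the NKX2-5 window. None of the 30 was narrower, by adjusted or unadjusted p, and in the NKX2-5 window 4 of the 8 had an unadjusted p under 0.05. The mean was higher in knockdown at all 30 sites, as at 92.6% of sites over the genome. The median log2 difference was 0.87 in the windows (1.82-fold) and 0.47 over the genome (1.38-fold). The groups were apart at 16 of the 30 sites (53.3%), against 47.2% over the genome, and at 0 in the opposite direction (0.804%).

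These calls depended on the analysis. With log2 widths centred on the median of each library, which gave a genome median of -0.0745 in place of 0.47, 20 of the 30 sites kept a positive sign, their median was 0.32 and 0 were called (limma; 9 wider and 1 narrower at unadjusted p under 0.05). Without knockdown replicate 1, 2 or 3 the count was 0 as well (limma; 15, 15 and 16 wider at unadjusted p under 0.05). It was 1 without control replicate 1, 1 without control replicate 2 and 14 without control replicate 3. With the replicate number as a block it was 0 in the windows and 0 over the genome. With only sites that had 1 peak in each library, it was 5 of 22 in the windows. The 4 called HAND2 sites were not among those 22, since each had more than 1 peak in some library. HAND2 site 5, the only site of its window tested there, did not pass (limma adjusted p = 0.0734). Relative to the genome median of the uncentred widths, the 11 called sites differed by 0.29 to 1.14 on the log2 scale.

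In the HAND2 window, sites 10, 13, 14 and 20 were wider in knockdown, with other sites between some of them. HAND2 site 14 at chr4:174440939-174445561, the widest site of any window at 4623 bp, had 3006, 3526 and 4066 bp covered in knockdown and 1746, 1628 and 2385 bp in control. Its log2 change was 0.89 with an SE of 0.168 (limma adjusted p = 0.0268), or 0.42 relative to the genome median. In control those bases lay in 3, 4 and 2 peaks, and in knockdown in 2, 1 and 2. HAND2 site 13 at chr4:174438719-174440872, 66 bp away, had 1797, 1755 and 1687 bp in knockdown against 702, 569 and 1178 bp in control, a log2 change of 1.17 (SE 0.250, limma adjusted p = 0.0321). The groups did not overlap at either site, and the knockdown libraries of site 13 lay close together. Sites 13 and 14 become 1 site when peaks up to 100 bp apart are merged, which leaves 4 shared sites in this window.

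HAND2 site 10 at chr4:174428830-174431021 had 1590, 1622 and 1692 bp in knockdown and 485, 400 and 912 bp in control. Its log2 change of 1.54 (SE 0.286, limma adjusted p = 0.0259) was 1.07 relative to the genome median. HAND2 site 20 at chr4:174451082-174452203 had 701, 618 and 838 bp in knockdown against 222, 296 and 355 bp in control (log2 change 1.32, SE 0.259, limma adjusted p = 0.0286). The remaining shared site of this window, site 5 at chr4:174412080-174412773, was looked at after its values were seen. It had 577 ± 82.0 bp in knockdown and 263 ± 192 bp in control (SD, n = 3 each) and did not pass (limma adjusted p = 0.0776). Its groups were apart too, so that all 5 shared HAND2 sites had every knockdown library above every control library.

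**Figure D4:**
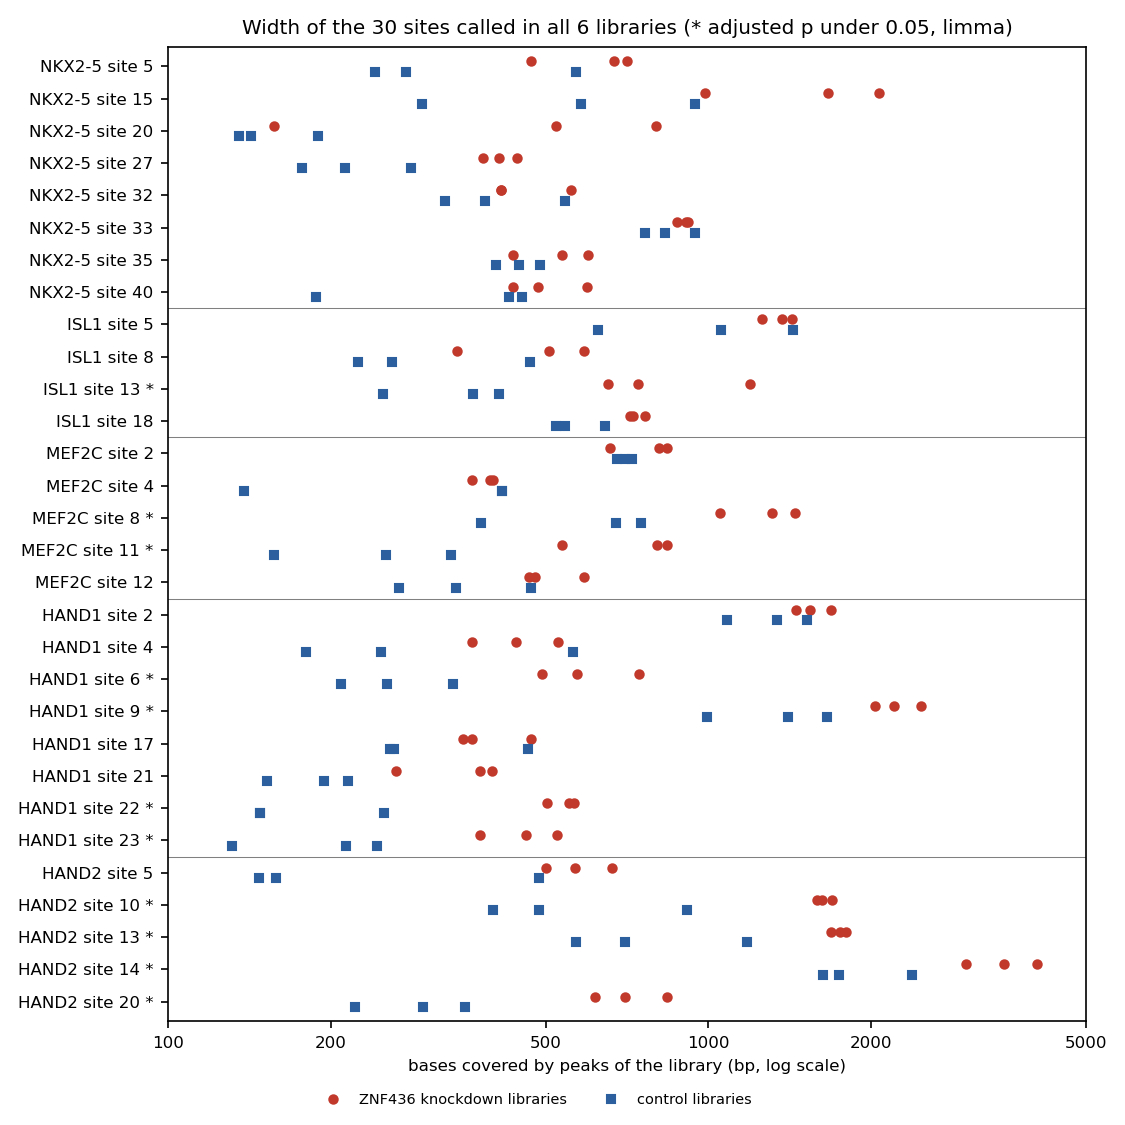
Bases covered by the peaks of each library (bp, log axis) at the 30 sites called in all 6 libraries, knockdown as red circles and control as blue squares just below. Asterisks mark the 11 sites past the adjusted threshold, 4 of them in the HAND2 window, where both colours stand apart at all 5 sites.

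In the HAND1 window, the largest change was at site 22, chr5:153903197-153903805. It had 502, 563 and 552 bp covered in knockdown and 148, 148 and 251 bp in control, a log2 change of 1.61 (SE 0.280, limma adjusted p = 0.0235), or 1.14 relative to the genome median. Its neighbour site 23 at chr5:153905659-153906183 had a mean of 454 ± 74.1 bp in knockdown and 196 ± 58.4 bp in control, and site 6 at chr5:153852345-153853121 had 603 ± 129 bp and 266 ± 64.4 bp (SD, n = 3 each, knockdown before control). The widest HAND1 site, site 9 at chr5:153856718-153859289, had 2204, 2036 and 2481 bp in knockdown against 996, 1406 and 1656 bp in control (log2 change 0.75, SE 0.189, limma adjusted p = 0.0432). In control its bases were split over 3, 4 and 2 peaks, and in knockdown over 1, 2 and 1. The next widest, site 2 at chr5:153825018-153827039, differed by less, with 1541, 1688 and 1451 bp in knockdown and 1083, 1521 and 1343 bp in control, and did not pass (log2 change 0.26, limma adjusted p = 0.215).

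In the MEF2C window, site 11 at chr5:88129284-88130165 had 838, 802 and 535 bp in knockdown and 157, 253 and 334 bp in control, a log2 change of 1.59 (SE 0.339, limma adjusted p = 0.0320). Site 8 at chr5:88080593-88082275, the widest there, had 1446, 1051 and 1311 bp in knockdown against 750, 674 and 380 bp in control (log2 change 1.12, SE 0.274, limma adjusted p = 0.0411). At both sites the groups were apart. Site 2 at chr5:87956386-87957325 had 658, 839 and 812 bp in knockdown and 722, 701 and 679 bp in control and did not pass (log2 change 0.13, limma adjusted p = 0.557).

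In the ISL1 window, site 13 at chr5:50694632-50695827 was wider, with 651, 740 and 1196 bp in knockdown and 409, 250 and 367 bp in control (log2 change 1.31, SE 0.307, limma adjusted p = 0.0377). The widest ISL1 site, site 5 at chr5:50678416-50679947, had 1368, 1432 and 1257 bp in knockdown against 624, 1437 and 1054 bp in control. Its groups overlapped through control replicate 2 (log2 change 0.46, limma adjusted p = 0.227).

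In the NKX2-5 window no shared site passed. The widest, site 15 at chr5:172661630-172663959, had 1664, 985 and 2073 bp in knockdown and 581, 295 and 945 bp in control, a log2 change of 1.46 with an SE of 0.435 (limma adjusted p = 0.0608). Its groups were apart, with knockdown replicate 2 close above control replicate 3. Site 33 at chr5:172717142-172718222 had overlapping widths, with 917, 877 and 911 bp in knockdown and 833, 764 and 947 bp in control (log2 change 0.094, SE 0.149, limma adjusted p = 0.620). It was also the strongest shared site of the windows, with score percentiles of 99.2, 98.3 and 99.1 in knockdown and 95.7, 97.3 and 98.3 in control.

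More peaks of the windows stood among the strongest 10% of their own list in knockdown than in control. Over the 5 windows there were 15, 11 and 10 such peaks in knockdown and 3, 4 and 7 in control, which is 11.9%, 10.8% and 9.71% of the window peaks in knockdown and 5.77%, 7.55% and 10.4% in control (percentages compared by a two-sided exact permutation test, n = 3 each, p = 0.2). The HAND2 window held 4, 2 and 2 such peaks in knockdown and 0 in each control library. The MEF2C window held 4, 2 and 2 in knockdown and 0, 1 and 1 in control. The ISL1 window held 2, 2 and 2 in knockdown and 1, 1 and 2 in control. For NKX2-5 the counts were 2, 3 and 3 in knockdown and 1, 1 and 3 in control. For HAND1 they were 3, 2 and 1 in knockdown and 1, 1 and 1 in control. As a share of the window's peaks, ISL1 had 10.5% to 14.3% in knockdown and 16.7% to 40% in control, where 40% was 2 of 5 peaks. The mean share for NKX2-5 was 8.58% in knockdown and 9.88% in control. The strongest 10% of a longer list holds more peaks. Percentiles from lists of unequal length are not comparable between libraries, so ranks were compared in lists of equal length.

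At equal list length, 24 shared sites of the windows could be ranked, and 2 had moved up: HAND2 site 13 and HAND1 site 22. Ranks run from 1, the strongest peak, to 50719 and were compared on the log2 scale by limma over 25076 sites, of which 3.19% were stronger and 2.37% weaker in knockdown after Benjamini-Hochberg adjustment. HAND2 site 13 ranked 4074, 3942 and 5545.5 in knockdown and 10435.5, 10639.5 and 11921.5 in control, a log2 change in rank of -1.30 (SE 0.361, limma adjusted p = 0.0273). HAND1 site 22 ranked 9900, 7436.5 and 12889 in knockdown and 26875.5, 25805.5 and 18182 in control, a log2 change of -1.24 (SE 0.349, limma adjusted p = 0.0286). No overlap between groups was seen at either site, and both sites had also been called as wider.

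The call of both sites was lost when percentiles were used on a linear scale or ranks were averaged over the peaks of a site, and the number of called sites ran from 0 to 4 with 1 library left out. It was 0 without knockdown replicate 1, control replicate 1 or control replicate 2, 1 without knockdown replicate 2, 2 without knockdown replicate 3 and 4 without control replicate 3. None of the 24 sites had a weaker rank after adjustment, while 1 did at unadjusted p under 0.05 and 6 had a stronger one.

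Of the 24 sites, 16 had a stronger mean rank in knockdown and 8 a weaker one, with a median log2 change of -0.35, against 0 over the genome. The groups were apart toward stronger ranks at 4 sites (11.7% of sites over the genome) and toward weaker ranks at 1 (11.4%). Besides the 2 called sites, the 4 were ISL1 site 18 and MEF2C site 12, singled out after their values were seen. ISL1 site 18 ranked 2643.5, 3144 and 1675.5 in knockdown and 7229, 6282.5 and 3433.5 in control (limma adjusted p = 0.0932). MEF2C site 12 ranked 6455, 9373 and 4044.5 in knockdown and 24412, 11523.5 and 10486.5 in control (limma adjusted p = 0.0634). The site with weaker ranks was NKX2-5 site 35, at 16705, 16748 and 16730 in knockdown and 13605, 9125.5 and 7352 in control (limma adjusted p = 0.202).

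**Figure D5:**
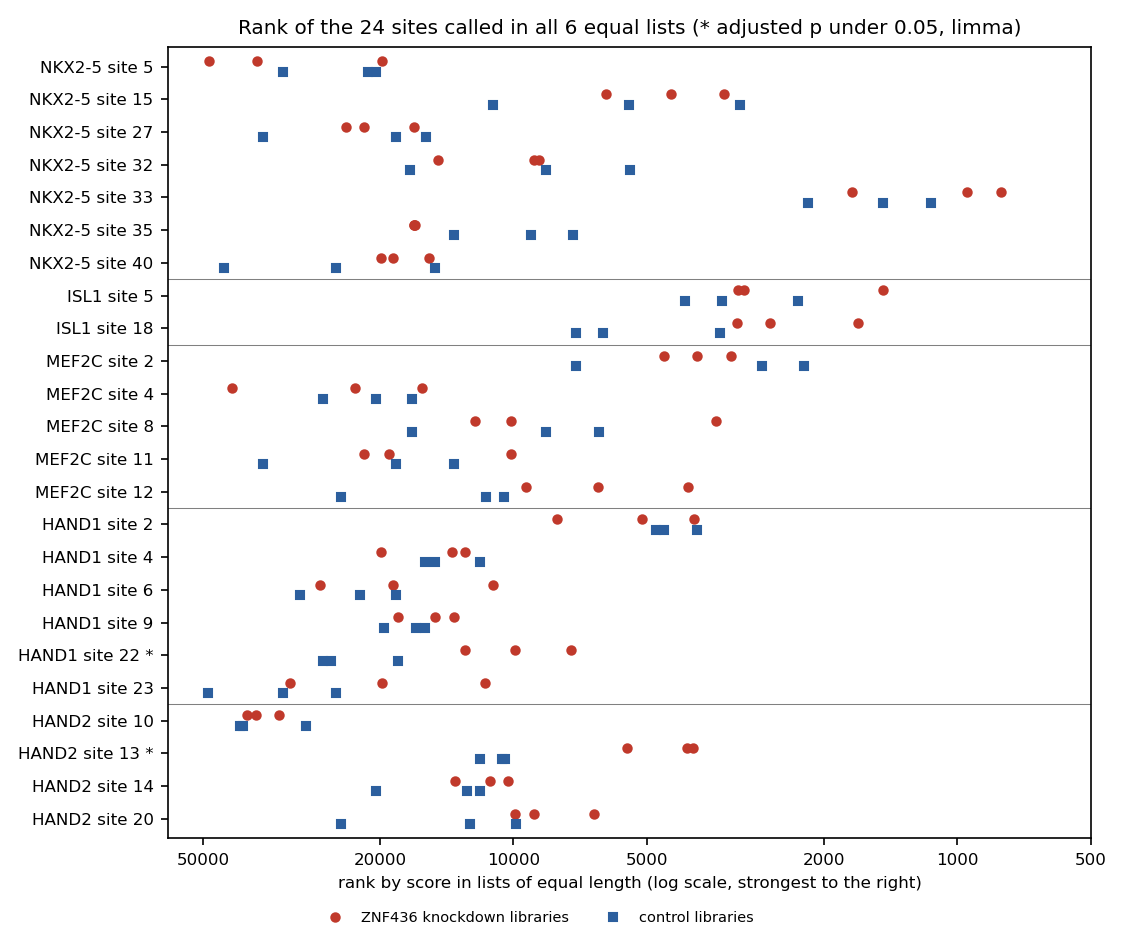
Rank by score in lists of 50719 peaks (log axis, strongest to the right) at the 24 window sites called in all 6 equal lists, knockdown as red circles and control as blue squares just below. HAND2 site 13 and HAND1 site 22, with asterisks, have all red circles to the right of the blue squares.

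Several wide sites had ranks that overlapped between the groups, but HAND2 site 13, at 2154 bp, had the largest rank change of the 24. HAND2 site 14 ranked 10295.5, 11308.5 and 13526 in knockdown and 12696.5, 20447 and 11921.5 in control, with overlapping groups (log2 change -0.32, limma adjusted p = 0.661). HAND2 site 10, at 37948.5, 33730.5 and 39934.5 in knockdown and 40678.5, 29344.5 and 41358.5 in control, had a log2 change of 0.017 (limma adjusted p = 0.983). Both had been wider in knockdown, while their ranks overlapped between the groups. HAND1 site 9 ranked 13614.5, 18181.5 and 15016.5 in knockdown and 15827, 16589 and 19620 in control (limma adjusted p = 0.849). NKX2-5 site 33 had the strongest ranks of the 24, at 950, 1724.5 and 796 in knockdown and 2172.5, 1473 and 1149 in control, and its groups overlapped.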

How the data were processed

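Open chromatin was measured by ATAC-seq in 3 ZNF436 knockdown and 3 control libraries of day-15 cells, which per the labels' protocols came from independent differentiations, so that p-values measure the spread between these. The submitters' processing notes name Bowtie2 2.4.5, bedtools 2.30.0 and hg19 without their roles. Each deposited list gives peak positions, a name that starts with MACS and holds 1 library's name, and an integer score. The score is the authors' value on a scale that is not stated, with lowest values of 20 to 25 per list. Here it served to order the peaks of 1 list, and ranks were compared between libraries only after reduction to 50719 peaks. Ties at the cut were broken by a seeded random draw, and peaks of equal score then shared their average rank. The sources used here give no caller version, threshold, Tn5 shift or duplicate removal. The lists hold no reads, so no depth or counting error can be given.

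The members and lists were chosen with earlier results of these data known. A library called a site when any of its peaks overlapped it, and sites were assigned to windows by midpoint. Single values were compared by two-sided exact permutation tests. Site widths, ranks and peak counts per bin (mean of 2 peaks or more, pseudocount 0.5) were fitted over the whole genome with limma 3.58.1 in R 4.3.3, with trended and robust variances. P-values were adjusted after Benjamini and Hochberg, and 0.05 was the threshold. Python 3.11.15, pandas 2.3.3, numpy 2.4.6 and scipy 1.17.1 did the rest, and the functions were tested on simulated data. Named sites are, per window, the 2 widest called in all 6 libraries, up to 2 called in knockdown alone whose lowest percentile was highest, all called in control alone, and up to 3 past the threshold for width or rank. Gene starts, other heart genes and marker genes need an hg19 annotation and were not analysed here. Alternatives were the stronger 50% of each list, equal list lengths, shares of the peaks of the same chromosome, a replicate block and leaving out each library. Other overlap, merging, flank, bin, scaling and pseudocount settings were also used.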

Additional observations from a re-analysis of the deposited data

How the results depend on the processing

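In the order knockdown over control, the peak ratio of every window stayed above 1 under all alternatives except for HAND1 at equal list length (0.892). With the stronger 50% of each list, the ratio of shares turned to 0.954 for MEF2C. For HAND2 it rose to 1.54 in that setting (p = 0.1, two-sided exact permutation test) and ran from 0.969 to 1.18 with 1 library left out. The log2 difference between window and flank turned to -0.060 for ISL1 and 0.44 for HAND2 with the stronger 50% of each list and to -0.14 for MEF2C with flanks of 3 Mb. With 1 library left out it ran from -0.10 to 0.30 for ISL1 and from -0.041 to 0.33 for NKX2-5. The causes were not tested.

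Sites called in knockdown alone numbered 17, and 7 with the stronger 50% of each list, 2 with equal lists, 30 when 2 of 3 libraries sufficed and 18 to 24 with 1 library left out, where fewer libraries had to meet the condition. Sites called in all libraries numbered 30, and 6 when peaks had to cover 50% of the site and 17 with the stronger 50% of each list.

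Wider and narrower sites numbered 3597 and 46 over the genome and 11 and 0 in the windows. Centred on library medians there were 22 and 32, with 0 wider in the windows. With equal lists 19 were narrower, with 8 wider in the windows. At sites with 1 peak per library, where fewer sites were tested, there were 2199 and 15, with 5 wider in the windows. The called HAND2 sites were not tested in that setting. With 1 library left out, there were 0 to 6833 wider, 0 to 71 narrower and 0 to 14 wider in the windows. Weaker and stronger ranks numbered 595 and 800, and 2 were stronger in the windows. On a linear scale there were 246 and 151, and with mean ranks 213 and 271, with 0 stronger in the windows in both (limma; 4 and 6 at unadjusted p under 0.05). With 1 library left out there were 349 to 892 weaker, 244 to 1184 stronger and 0 to 4 stronger in the windows.

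Higher and lower bins numbered 571 and 292, with 2 of the 6 window bins higher. There were 2564 and 20 without scaling (6 in the windows), 305 and 446 scaled to the median ratio (1 in the windows), 359 and 184 with equal lists, and 135 to 703 and 159 to 316 with 1 library left out (1 to 3 in the windows). The log2 change turned to -0.061 for NKX2-5 and -0.095 for the second MEF2C bin with the median ratio, and to 0.65 for the first MEF2C bin without scaling. With 1 library left out it ran from -0.042 to 0.17 for NKX2-5 and from -0.066 to 0.16 for the second MEF2C bin.

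With the replicate block, 0 sites were wider and 0 narrower over the genome (limma; 10382 and 202 at unadjusted p under 0.05) and 0 in the windows (17 wider unadjusted). The block gave 697 weaker and 1037 stronger ranks, 3 of them in the windows, and 655 higher and 308 lower bins, 3 of them in the windows, where the HAND1 bin then had an adjusted p of 0.0369. The peak ratio of all windows was 1.96 and the ratio of bases 2.62 with the block. After subtraction of group means, same-numbered libraries had correlations of 0.03, 0.11 and 0.09 over bins, so the numbers were not taken as pairs. Libraries of unlike number ran from -0.14 (knockdown replicate 2 with control replicate 3) to 0.05 (knockdown replicate 1 with control replicate 3) over bins. Replicates 2 and 3 correlated most with their own number. Control replicate 1 correlated slightly more with knockdown replicate 2 (0.04) than with its own number (0.03).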
